A study of Mus musculus with 6 samples.

Results

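The Slc25 genes encode the mitochondrial carrier family, and 45 of its members were followed here in blood progenitors of mouse fetal liver in which Samd14 was lowered. Every gene symbol of the form Slc25a followed by a number was taken, except Slc25a37 and Slc25a38, from the 24376 gene IDs of the expression tables. Members were matched by symbol only. Of the 45 members, 38 held enough reads to be tested for a difference between the groups. The other 7 are given by level only.

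Mitochondrial carriers are membrane proteins, nearly all of the inner membrane, that exchange small molecules between the cytosol and the matrix. ADP goes in and ATP comes out through them, and so pass phosphate, citrate, malate, aspartate, glutamate, carnitine esters, nucleotides, coenzymes, iron and glutathione. In cells on the way to red cells, carriers bring iron and other substrates to the mitochondria for heme and iron-sulfur cluster synthesis. Carrier proteins are made in the cytosol, have mostly no cleaved presequence, and enter the inner membrane with the help of small Tim chaperones of the intermembrane space.

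RNA with poly(A) tails was sequenced from 6 libraries of C57BL/6 progenitors, enriched from livers of E14.5 embryos. In 3 control libraries the cells had received a retrovirus with a control short hairpin RNA (shRNA), and in 3 shSamd14 libraries a retrovirus with an shRNA against Samd14. Such a hairpin is trimmed by the cell to a small RNA, which lowers the transcripts that pair with it. Infection directly followed isolation, culture ex vivo in StemPro-34 medium lasted 3 days, and each library was made from 200000 cells that carried neither CD71 nor Ter119, which mark the surface of maturing erythroid cells. The sources used here do not give the target of the control shRNA. The labels do not state that libraries of a group are from separate embryos or cultures, so the p-values rest on the spread between these libraries alone, and that spread may be technical.

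The control libraries held 20584169 to 24069711 estimated counts and the shSamd14 libraries 23862151 to 26462797. Samd14 itself was at 82.0, 82.1 and 83.8 counts per 1000000 (CPM) in the controls and at 41.9, 38.8 and 39.4 CPM with its shRNA, 0.484 of the control level (Benjamini-Hochberg adjusted p = 4.69e-07, edgeR quasi-likelihood test). All 8 progenitor markers searched, Kit, Cd34 and Gata2 among them, were detected, with a summed level of 1340 to 1530 CPM in the controls and 1340 to 1370 with shSamd14. The 8 maturing erythroid markers, none of them at 0, summed to 2110 to 2820 CPM against 2820 to 3260, 6 of them with a positive log2 fold change. None of the 8 passed in edgeR, DESeq2 or limma-voom. At an unadjusted p under 0.05 in edgeR there were 3, against 15% of all tested genes: Tfrc lower, and Hbb-bt and Epb42 higher. Of the progenitor markers 0 passed in edgeR and limma-voom, and 2 (Kit and Lmo2) passed in DESeq2, which called 3.38% of all genes. At an unadjusted p under 0.05 in edgeR there were 4: Kit, Gata2, Lmo2 and Tal1. Kit was lower in every shSamd14 library than in any control, at 0.795 of the control level. Gata2, Lmo2 and Tal1 were higher in every one, at 1.19-fold, 1.18-fold and 1.12-fold. Of all tested genes 10.2% lay wholly below the controls in this way and 10.5% wholly above. Neutrophil and monocyte markers summed to 2840 to 4500 CPM against 3100 to 4600, and mast cell and basophil markers to 46.3 to 51.8 against 43.9 to 52.1. The 5 macrophage markers summed to 4.4 to 6.49 CPM against 4.51 to 5.93. Of these C1qa and Cd5l were at 0 in all libraries, Adgre1 was at 3.43 to 5.74 CPM, and Vcam1 was at 0.61 to 0.773 CPM in the controls and 1.04 to 1.7 CPM with shSamd14 (Benjamini-Hochberg adjusted p = 0.0951, edgeR). Hepatocyte markers summed to 25.3 to 48.2 CPM in the controls and 21.1 to 30.7 CPM with shSamd14. Most of this was Apoa1, at 35.7 ± 11.2 CPM against 21.9 ± 3.9 CPM with overlapping groups (Benjamini-Hochberg adjusted p = 0.367, edgeR). Each of the others was at most 1.93 CPM in any library. These are bulk samples, in which fewer cells of a type and less RNA per cell cannot be told apart.

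A few carriers made up most of the family's RNA. Levels are compared between genes in transcripts per 1000000 (TPM), which are scaled for gene length. Slc25a5, the ADP/ATP carrier usually most abundant in dividing cells, was at 1250, 1370 and 1250 TPM in the controls and 1360, 1360 and 1300 TPM with shSamd14. Slc25a3, which brings in the phosphate used by ATP synthase, was at 669, 662 and 623 TPM against 648, 649 and 608 TPM. For both genes the ranges of the groups overlapped. Slc25a5 alone took 42.9% to 45.8% of the family's TPM in the controls and 44.4% to 45.5% with shSamd14, and Slc25a3 took 22.1% to 23.0% and 20.8% to 21.7%. The whole family summed to 2904 ± 92.9 TPM in the controls and 2971 ± 40.3 TPM with shSamd14 (SD, n = 3 each). That was 0.281% to 0.300% of all TPM in a library, and the ranges of the groups overlapped.

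Slc25a4 followed at a mean of 120 TPM over all 6 libraries, and it closes the group of 3 members with 100 TPM or more. Another 23 members lay between 10 and 100 TPM, 10 between 1 and 10 TPM, and 9 under 1 TPM. Of the 44 pairs of neighbours in the order of levels, 30 had overlapping TPM ranges over the libraries and 14 did not. The order between most neighbours is therefore not larger than the spread between libraries, while the steps from Slc25a5 to Slc25a3 and from Slc25a3 to Slc25a4 are. The members past the count filter varied between control libraries with a median coefficient of variation of 6.67% in CPM, against 7.12% for all tested genes.

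**Figure D1:**
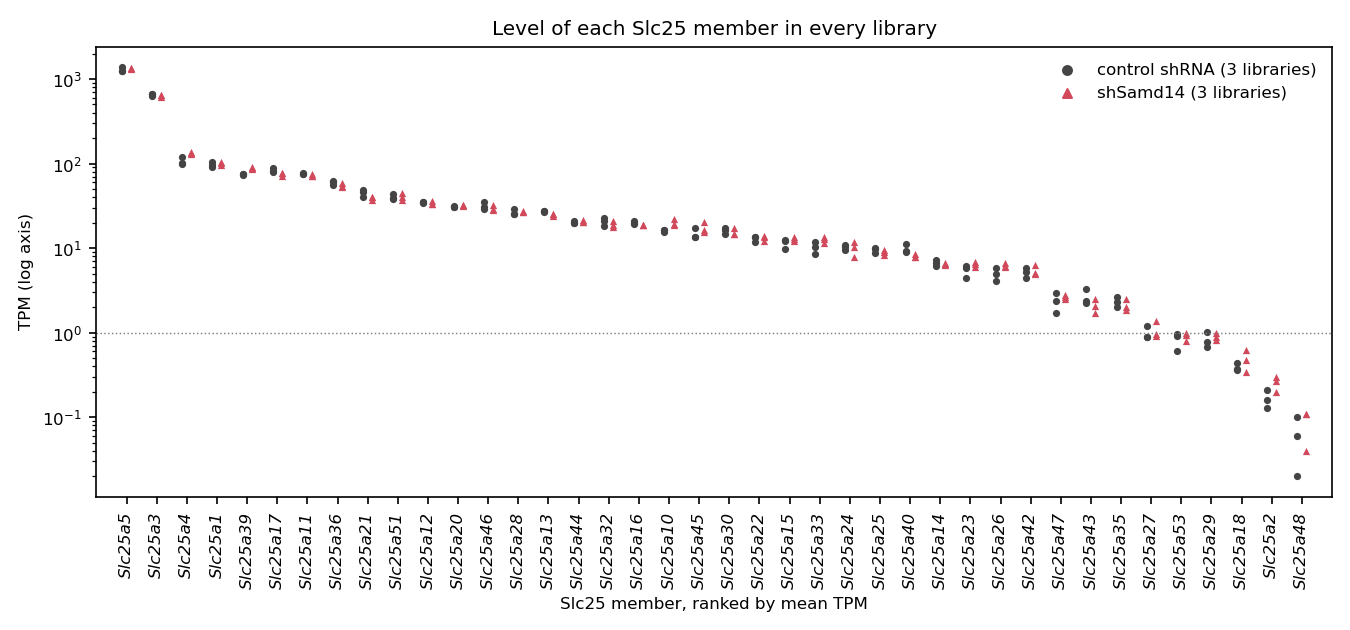
Level of each Slc25 member in each library, in TPM on a log axis, with members in order of their mean and the groups marked by colour; 40 members are drawn, without the 4 that were at 0 in a library and 1 that is not reported by name. Slc25a5 and Slc25a3 stand above the other members in every library, and the points of the groups lie close together for most members.

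Some members next to each other in the genome were far apart in level. In mm10 (GENCODE M21) 4 pairs of members lay within 100 kb of each other. Slc25a5 (chromosome X, 36795651 to 36798807, plus strand) lay 18.4 kb from Slc25a43, a carrier of no settled substrate, whose mean was 2.36 TPM. Slc25a24, a calcium-regulated ATP-Mg/phosphate carrier, had a mean of 10.1 TPM and lay 6.46 kb from Slc25a54, which had no read in any library. Slc25a23, of the same ATP-Mg/phosphate group, had a mean of 5.92 TPM and lay 2.06 kb from Slc25a41, which had 0.01 TPM. Slc25a29 and Slc25a47, on opposite strands and 0.162 kb apart, were both low, with means of 0.862 and 2.5 TPM.

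The comparison of the groups asks which carriers differ when Samd14 is lowered. No member passed the edgeR quasi-likelihood test at a Benjamini-Hochberg adjusted p under 0.05, and Slc25a4 came closest at 0.0696. Over all 12670 tested genes 2.58% passed, 1.32% higher and 1.26% lower with shSamd14. Before adjustment 7 of the 38 members (18.4%) had a p under 0.05 in the edgeR test, against 15% of all tested genes: Slc25a4, Slc25a10, Slc25a33 and Slc25a39 on the higher side, and Slc25a40, Slc25a13 and Slc25a17 on the lower. DESeq2 called 1 member, Slc25a4 (adjusted p = 0.0147), where it called 3.38% of all genes, and limma-voom called 0 members, where it called 2.45%. At an unadjusted p under 0.05 the counts of members were 6 in DESeq2 and 8 in limma-voom. The share of all tested genes at that cut was taken in edgeR only, so these counts have no background to be read against. In 5 members (13.2%) all shSamd14 libraries lay above all control libraries in CPM, as in 10.5% of all tested genes. In 7 members (18.4%) they all lay below, as in 10.2%.

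The differences were small in size. Log2 fold changes (shSamd14 over control, from edgeR) were positive in 20 and negative in 18 members, with a median of 0.02 against 0.01 for all tested genes. The median without regard to sign was 0.12, against 0.10 for all tested genes, and no member went past 0.33. The 95% interval of the fold change, per gene and without adjustment, lay within 1.25-fold of the control level in 19 members, within 1.5-fold in 32 and within 2-fold in all 38. The 6 whose interval reached past 1.5-fold were Slc25a26, Slc25a27, Slc25a29, Slc25a43, Slc25a47 and Slc25a53, all with a mean under 10 CPM.

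**Figure D2:**
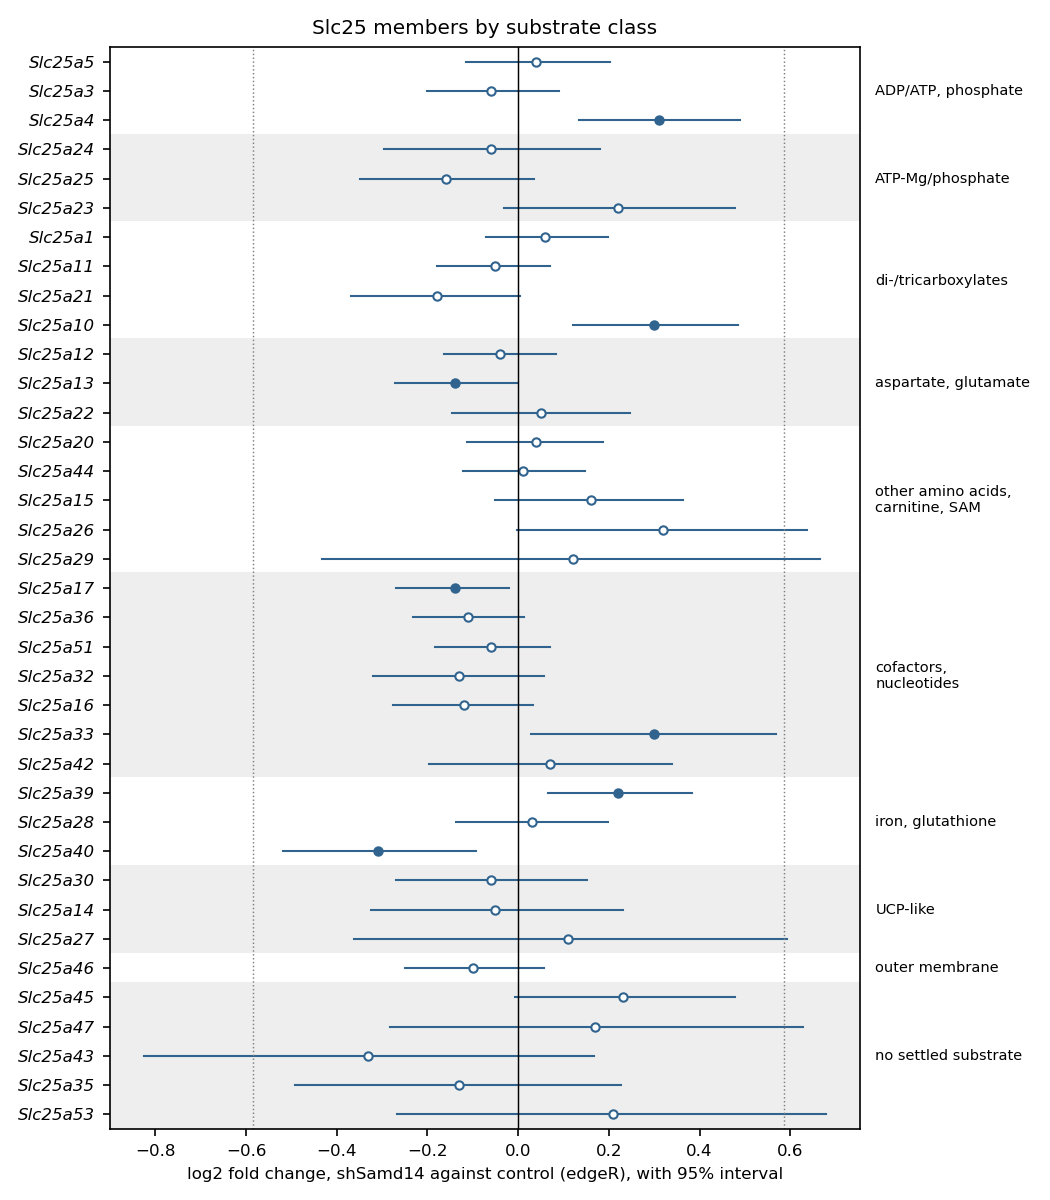
Log2 fold change of shSamd14 over control for 37 of the 38 tested members, from edgeR, by substrate class, with bars for the unadjusted 95% interval of each gene, filled points for an unadjusted p under 0.05 and dotted lines at 1.5-fold. The estimates lie on both sides of 0 and none goes past 0.33, and the widest intervals belong to members with few counts.

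Among the ADP/ATP carriers, Slc25a4 was the member nearest to the threshold. It encodes the adenine nucleotide translocator best known from heart and skeletal muscle (ENSMUSG00000031633; chromosome 8, 46206797 to 46211284, minus strand, mm10). It was at 110, 139 and 118 CPM in the controls and at 158, 156 and 142 CPM with shSamd14. All 3 shSamd14 libraries lay above all 3 controls, the nearest being control replicate 2 and shSamd14 replicate 3. The means were 122 ± 15.2 and 152 ± 8.92 CPM (SD, n = 3 each), a log2 fold change of 0.31 (SE 0.08) or 1.24-fold with a 95% interval of 1.1 to 1.4. Its Benjamini-Hochberg adjusted p from edgeR, 0.0696, missed the threshold, and without control replicate 2 it was 0.00924 at a log2 fold change of 0.42. With any of the other 5 libraries left out it missed the threshold, with a Benjamini-Hochberg adjusted p of up to 0.287 (edgeR). DESeq2, limma on log2(TPM + 1) (adjusted p = 0.0392) and edgeR on genes without a count filter (adjusted p = 0.0158) placed it past the threshold.

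The 3′ untranslated region (UTR) of Slc25a4 holds an 8-base word, CTGATTAA, that stands also in Timm10, a chaperone of carrier import that did pass the test and whose values are given with the lists of related genes. The sites are shown because Slc25a4 shares this word with Timm10. The words CTGATTA and TGATTAA, and CAAGTGT and AAGTGTA, come from an earlier search for words that go with the differences in these same libraries, so values by word are a description and support nothing. The sites are 5′ to 3′ on the strand of the transcript, from GENCODE M21 transcripts (GRCm38, that is mm10), and capitals mark the word. They lie at chr8:46207223-46207252 (minus strand) in Slc25a4, chr8:22375557-22375586 (minus) in Slc25a15, chr2:84830023-84830052 (plus) in Timm10, chr19:5885568-5885597 (plus) in Slc25a45 and chrX:136982134-136982163 (minus) in Slc25a53. The site of Slc25a40, at chr5:8453947-8453976 (plus), shows the other word. CAAGTGT or AAGTGTA also stands in Slc25a36, Slc25a51 and Slc25a12, with log2 fold changes of -0.11, -0.06 and -0.04, against -0.31 for Slc25a40. Slc25a18, which was not tested, holds it too. The sites of these others are not shown. CTGATTA and TGATTAA overlap in CTGATTAA, and CAAGTGT and AAGTGTA overlap likewise. Slc25a15 also holds a word of the other kind elsewhere in the UTR.
Slc25a4: tacttgttcacCTGATTAActgaagaactg
Slc25a15: taagcaagctcCTGATTAAatgctttcatt
Timm10: ttgccacttgcCTGATTAAagtgtccctaa
Slc25a45: cctcatctgtgCTGATTAtggggtacccaa
Slc25a53: gggtatctgctCTGATTAgaagccctagat
Slc25a40: agcttgccttcCAAGTGTcattgtttgtag

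Slc25a4 and Slc25a5 exchange the same substrates, so their balance can be read as a share. Slc25a4 made up 7.40% to 8.02% of the TPM of the ADP/ATP carriers in the controls and 9.01% to 9.21% with shSamd14, without overlap. The TPM of Slc25a4 alone did not overlap either, at 99.6, 120 and 101 TPM against 135, 138 and 129 TPM. The share therefore largely restates the difference of Slc25a4. Slc25a5 had a log2 fold change of 0.04, or 1.03-fold with a 95% interval of 0.923 to 1.15 (Benjamini-Hochberg adjusted p = 0.836, edgeR). The phosphate carrier Slc25a3 had 0.962-fold of the control level, with an interval of 0.869 to 1.06 (adjusted p = 0.755, edgeR). Slc25a31, the ADP/ATP carrier of the testis, had 1 read in 1 library. A copy of Slc25a5 annotated as a pseudogene, Slc25a5-ps on chromosome 14, has no ID of its own in the tables, so reads from it could not be told from those of Slc25a5.

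**Figure D3:**
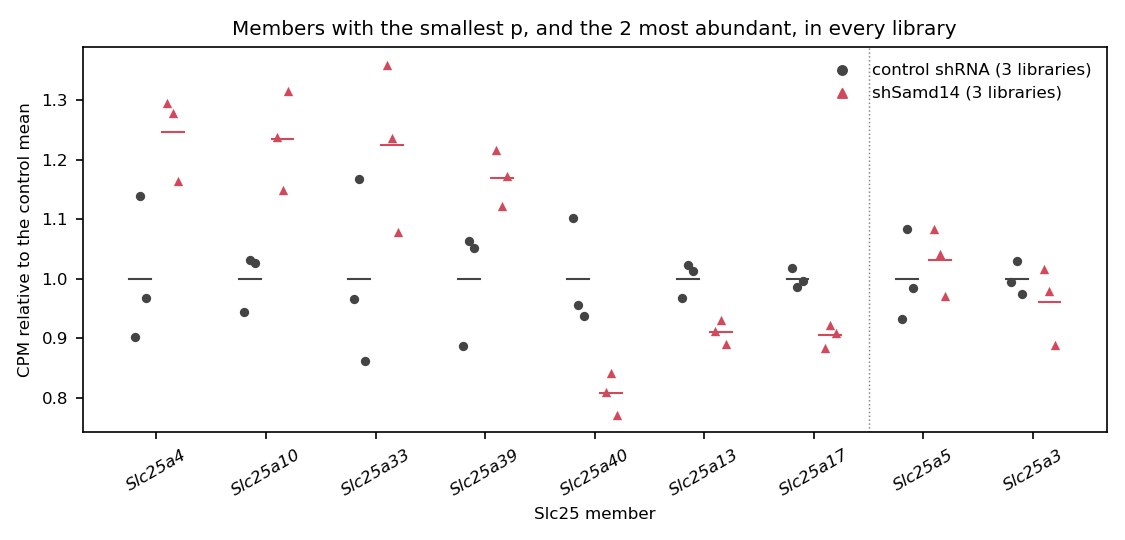
CPM relative to the control mean, per library, of the 7 members with an unadjusted p under 0.05 and of Slc25a5 and Slc25a3, with 3 control and 3 shSamd14 points per gene and a line at each group mean. In Slc25a4, Slc25a10 and Slc25a39 all shSamd14 points lie above the controls, in Slc25a40, Slc25a13 and Slc25a17 they all lie below, and in Slc25a33 the groups overlap.

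Iron and glutathione carriers included a pair of relatives with estimates of opposite sign. Slc25a39 brings glutathione into mitochondria and is abundant in erythroid cells, and Slc25a40 is its closest relative. Slc25a39 was at 58.4, 70.1 and 69.3 CPM in the controls and 80.1, 73.9 and 77.2 CPM with shSamd14. Its groups did not overlap, and control replicate 1 was the lowest. The log2 fold change was 0.22 (SE 0.07), 1.17-fold with an interval of 1.05 to 1.31 (Benjamini-Hochberg adjusted p = 0.15, edgeR). Without control replicate 1 it was 0.14 (adjusted p = 0.501, edgeR). The gene length that the authors' table estimates for Slc25a39 was 1395 bases in control replicate 1 and 1481 to 1534 bases in the other 5 libraries. In TPM, which uses that length, the controls were closer together, at 74.0, 76.2 and 76.2 TPM against 87.6, 85.2 and 92.1 TPM.

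Slc25a40 was at 17.3, 15 and 14.7 CPM in the controls and at 12.7, 13.2 and 12.1 CPM with shSamd14. All shSamd14 libraries lay below the controls, of which replicate 1 was the highest. The log2 fold change was -0.31 (SE 0.10), or 0.809 of the control level with an interval of 0.698 to 0.938 (Benjamini-Hochberg adjusted p = 0.143, edgeR). The ratio of Slc25a39 to Slc25a40 in TPM was 6.53 to 8.57 in the controls and 10.1 to 11.7 with shSamd14. It could not overlap, because in TPM too Slc25a39 lay above and Slc25a40 below the controls in every shSamd14 library. The ratio therefore adds nothing to the values of the single genes. Slc25a28, mitoferrin-2, an iron carrier found in most cells, had a mean of 26.9 TPM and 1.02-fold of the control level, with an interval of 0.909 to 1.15. Beside these members 2 of the 8 maturing erythroid markers and all 6 megakaryocyte markers were higher in every shSamd14 library than in any control. Of all tested genes 10.5% lay above in this way. The megakaryocyte markers summed to 276 to 283 CPM with shSamd14 against 211 to 236 in the controls. Of these 6 markers Pf4, a platelet chemokine, passed in edgeR and limma-voom, and lost the edgeR call without control replicate 1 or shSamd14 replicate 2. DESeq2 called 3, Itga2b, Pf4 and Ppbp, where it called 3.38% of all genes. In edgeR 5 of the 6 had an unadjusted p under 0.05, against 15% of all tested genes. The part of such cells in the values of Slc25a4, Slc25a39 and Slc25a40 was not tested.

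Of the 4 di- and tricarboxylate carriers, 2 had positive and 2 negative estimates. Slc25a10 exchanges malate and succinate for phosphate. It was at 18.3, 20 and 19.9 CPM in the controls and at 24, 22.3 and 25.5 CPM with shSamd14, without overlap. The log2 fold change was 0.30 (SE 0.08), 1.23-fold with an interval of 1.09 to 1.4, and the Benjamini-Hochberg adjusted p from edgeR was 0.0818. Slc25a1, which exports citrate for lipid synthesis, had a mean of 98.6 TPM and 1.05-fold of the control level (interval 0.953 to 1.15). Slc25a11, the oxoglutarate/malate carrier of the malate-aspartate shuttle, was at 73.8, 74.3 and 76.2 CPM against 72.3, 70.7 and 73.0 CPM. Its groups did not overlap, but the difference was small, 0.963 of the control level (interval 0.883 to 1.05). Slc25a21, the oxoadipate carrier, had a log2 fold change of -0.18 (SE 0.09), with control replicate 2 inside the range of the shSamd14 libraries. Without shSamd14 replicate 3 it was -0.096.

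The aspartate/glutamate carriers, which also serve the malate-aspartate shuttle, were both present. Slc25a12 had a mean of 34.6 TPM and Slc25a13, known as citrin, 26.0 TPM. Slc25a13 was at 48.4, 51.1 and 50.6 CPM in the controls and 45.6, 46.5 and 44.5 CPM with shSamd14. All shSamd14 libraries were lower than all controls, at 0.909 of the control level (interval 0.828 to 0.999), and the Benjamini-Hochberg adjusted p from edgeR was 0.325. Slc25a12 was at 0.973 of the control level (interval 0.893 to 1.06) with overlapping groups, and its ratio to Slc25a13 in TPM was 1.26 to 1.32 in the controls and 1.32 to 1.45 with shSamd14. Of the glutamate carriers, Slc25a22 had a mean of 13.1 TPM and 1.04-fold of the control level (interval 0.904 to 1.19), and Slc25a18 had 0.437 TPM and was not tested.

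Other amino acid, carnitine and S-adenosylmethionine carriers all had positive estimates, 5 of 5 tested, from 0.01 to 0.32 on the log2 scale, and none passed the edgeR test. Slc25a20, the carnitine/acylcarnitine carrier of fatty acid oxidation, was the most abundant of them at a mean of 31.4 TPM, with 1.03-fold of the control level (interval 0.925 to 1.14). Slc25a26, which brings S-adenosylmethionine into mitochondria, had the largest positive estimate of the family in the edgeR fit on all 6 libraries. It was at 4.54, 5.75 and 6.66 CPM in the controls and at 7.11, 7.5 and 6.59 CPM with shSamd14. The groups overlapped by control replicate 3, and the 1.25-fold difference had an interval of 0.998 to 1.55. Without control replicate 1 its log2 fold change was 0.181, below the 0.236 of Slc25a4, the 0.257 of Slc25a10 and the 0.269 of Slc25a33. Slc25a44, a carrier of branched-chain amino acids, had a log2 fold change of 0.01, and the ornithine carrier Slc25a15 one of 0.16 (SE 0.10). Its relative Slc25a2 was at 0.212 TPM and was not tested. Slc25a29, a carrier of basic amino acids, was near 1 CPM and had a log2 fold change of 0.12 with an error larger than that (SE 0.26).

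Among the 8 cofactor and nucleotide carriers, all tested, 3 had positive and 5 negative estimates, with a median of -0.08. Slc25a17, a peroxisomal member that carries coenzyme A, FAD and NAD, was at 83.2, 80.7 and 81.5 CPM in the controls and 72.3, 75.4 and 74.3 CPM with shSamd14. The groups did not overlap, at 0.905 of the control level (interval 0.830 to 0.986, Benjamini-Hochberg adjusted p = 0.245, edgeR). The pyrimidine nucleotide carriers had estimates of opposite sign. Slc25a33 was at 11, 13.3 and 9.82 CPM against 15.5, 14.1 and 12.3 CPM, so control replicate 2 reached into the shSamd14 range, and its fold of 1.23 had an interval of 1.02 to 1.48 (adjusted p = 0.269, edgeR). Without control replicate 3 the log2 fold change of Slc25a33 was 0.194. Slc25a36 was at 122, 115 and 121 CPM against 108, 112 and 112 CPM, 0.927 of the control level (interval 0.852 to 1.01). The NAD carrier Slc25a51 had a mean of 40.4 TPM and a log2 fold change of -0.06 from counts, while in limma on log2(TPM + 1) it was 0.02; its estimated gene length ranged over the libraries from 3417 to 3884 bases. Slc25a16, which has a part in coenzyme A uptake, was at 35.8, 40.3 and 37.1 CPM against 35.7, 34.9 and 33.7 CPM. All of its shSamd14 libraries lay below the controls, at 0.919 of the control level (interval 0.827 to 1.02), with little space between the nearest. The flavin and folate carrier Slc25a32 and the coenzyme A carrier Slc25a42 had log2 fold changes of -0.13 (SE 0.09) and 0.07 (SE 0.13), with overlapping groups.

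The remaining groups gave no call either. Of the calcium-regulated ATP-Mg/phosphate carriers, Slc25a24 had 0.961 of the control level (interval 0.815 to 1.13). Slc25a25 was lower in every shSamd14 library, at 16.9, 15.2 and 16.3 CPM against 17.9, 19 and 17 CPM, with an interval of 0.786 to 1.02. Slc25a23 was higher in every shSamd14 library, at 11.7, 11.4 and 12.9 CPM against 8.69, 10.8 and 11.4 CPM, with an interval of 0.978 to 1.39. Without control replicate 1 its log2 fold change of 0.22 became 0.112. Its highest control and lowest shSamd14 value are the same at this rounding. Of the carriers grouped with the uncoupling proteins by sequence, Slc25a30 led at a mean of 15.8 TPM and had a log2 fold change of -0.06 (SE 0.10). Slc25a14 and Slc25a27, of the same branch, had log2 fold changes of -0.05 (SE 0.13) and 0.11 (SE 0.22). Slc25a46, a member of the outer membrane that acts in mitochondrial shape, had a mean of 30.8 TPM and 0.935 of the control level (interval 0.841 to 1.04). Of the 8 members with no settled substrate, Slc25a45 was the most abundant at 16.2 TPM, with a log2 fold change of 0.23 (SE 0.11). Without control replicate 1 the value of Slc25a45 was 0.147, and without control replicate 3 it was 0.369. Slc25a43 had the largest negative estimate of the family in the fit on all 6 libraries, -0.33 (SE 0.23), at 1.12 to 2.03 CPM. Without control replicate 1 it was -0.185, smaller in size than the -0.235 of Slc25a40. Slc25a35, Slc25a47 and Slc25a53 had log2 fold changes of -0.13 (SE 0.17), 0.17 (SE 0.21) and 0.21 (SE 0.22), each with overlapping groups.

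Members at the bottom of the range were near the limit of counting. Slc25a54 had no read in any library, which allows a level of up to 0.111 to 0.145 CPM (3 reads per library). Slc25a41, Slc25a31 and Slc25a34 had 1 read in 1 library each. Slc25a48 had a mean of 0.0733 TPM. For these members a difference between the groups was not detectable at this depth. Exons of 8 members overlap a gene on the opposite strand that is also in the tables, among them Slc25a11, Slc25a18, Slc25a21, Slc25a25, Slc25a26, Slc25a35 and Slc25a46. Whether the authors' counting used strand is not given in the sources used here, so counts of these members may hold reads of their partners.

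Genes that work with the carriers were set beside them, from lists by function. Of 13 genes on the import route of carrier proteins, 1 passed the edgeR test, which 2.58% of all tested genes passed. At an unadjusted p under 0.05 there were 5 of the 13, against 15% of all tested genes: Timm10, Tomm40, Timm22 and Timm29 on the higher side and Agk on the lower. Timm10, a small Tim chaperone that guides carriers through the intermembrane space, was at 10.1, 12.1 and 10.5 CPM in the controls and 24.9, 21.2 and 19.3 CPM with shSamd14. Every shSamd14 library was above every control. The mean of Timm10 rose from 10.9 ± 1.04 CPM to 21.8 ± 2.84 CPM (SD, n = 3 each), 2-fold, a log2 fold change of 1 (SE 0.11; Benjamini-Hochberg adjusted p = 0.000253, edgeR). It passed with any 1 library left out. Timm9, which forms a complex with Timm10, was at 32.6, 42.2 and 33.3 CPM against 39.6, 38.4 and 32.8 CPM, a log2 fold change of 0.03 (adjusted p = 0.922, edgeR), with overlapping groups.

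The word CTGATTAA shown beside Slc25a4 lies in the 3′ UTR of Timm10 too. Of 14 tested ATP synthase subunits, which use the phosphate and ADP that carriers bring in, 0 passed in edgeR, DESeq2 or limma-voom and 0 had an unadjusted p under 0.05 in any of these, with a median log2 fold change of 0.02. Of 21 enzymes of the citric acid cycle and the malate-aspartate shuttle 0 passed in these tools, with 16 positive estimates and a median of 0.05. In each tool 3 had an unadjusted p under 0.05, and in edgeR 15% of all tested genes did. In edgeR these were Cs, at 0.903 of the control level, and Sdhb and Got2, at 1.15-fold and 1.09-fold. Ucp2, an uncoupling protein of the carrier fold that the choice by symbol leaves out, was at 660 ± 28.4 CPM in the controls and 716 ± 44.7 CPM with shSamd14 and did not pass. Ucp1 was at 0 in all libraries.

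**Figure D4:**
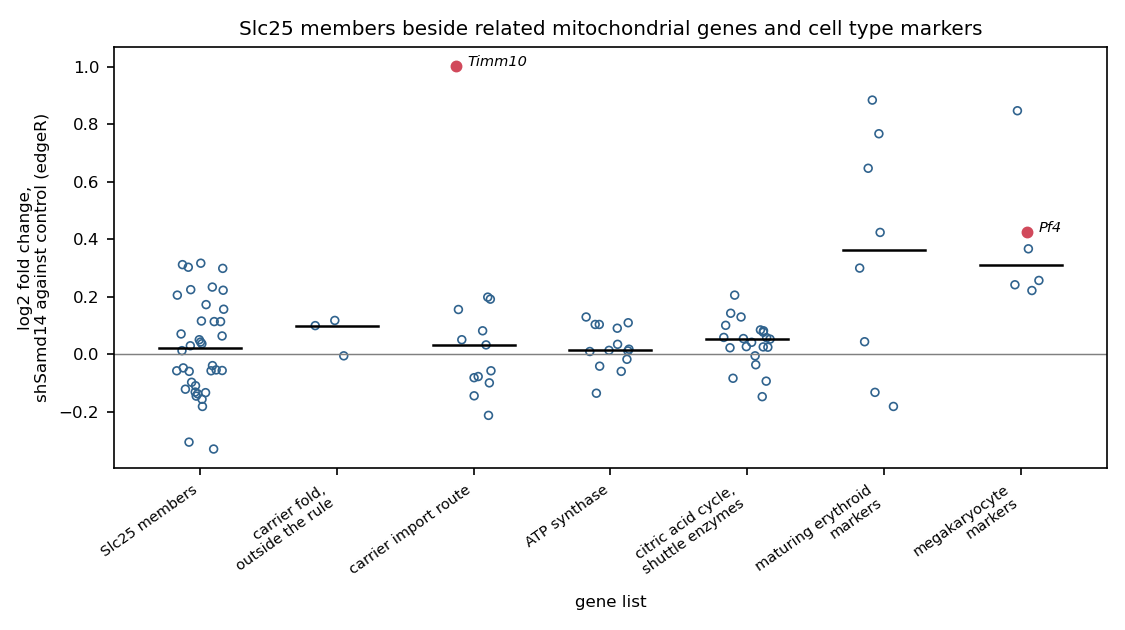
Log2 fold change of shSamd14 over control, from edgeR, for the Slc25 members, for the lists of related mitochondrial genes and for erythroid and megakaryocyte markers, with 1 point per tested gene and a line at each median. Filled points passed the edgeR test: Timm10 at 1 and the megakaryocyte marker Pf4, while no Slc25 member did.

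Over the family the words shown beside Slc25a4 were in few members. CTGATTA or TGATTAA stands in the longest annotated 3′ UTR of 4 of the 37 tested members that have one (10.8%), against 14.9% of 11870 tested genes, and their median log2 fold change was 0.22. CAAGTGT or AAGTGTA stands in 5 members (13.5%), against 22.7%. The 4 of these without the other word, Slc25a36, Slc25a51, Slc25a12 and Slc25a40, had a median of -0.08. Slc25a15 holds both words, and the 29 members with neither had a median of 0.03. The 8-base word CTGATTAA is in 300 tested genes (2.53%), of which 55 were called higher and 1 lower by edgeR. Over all tested genes 1.32% were called higher and 1.26% lower. The words come from a search on the differences in these same libraries, so these counts and medians are a description and support nothing. The shares of members with either kind of word, 10.8% and 13.5%, lie below those of all tested genes, and most members hold neither word.

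The 250 bases before each RefSeq start (GRCm38.p6) were found for 35 members and searched on both strands for 4 motifs. Shares of all genes are over the 27025 genes with a window, with or without reads here. The letters CG stood at a median of 11 times in member windows and 6 times in all windows. Some windows lie inside the gene as GENCODE M21 places it, among them 222 of the 250 bases for Slc25a4. The letters CCAAT were in a window of 18 members (51.4%, against 37.5% of all genes). CCGGAAG, a core bound by GABPA, was in 5 members (14.3% against 7.83%): Slc25a3, Slc25a4, Slc25a17, Slc25a20 and Slc25a54. The NRF1 motif GCGCNTGCGC was in Slc25a3 and Slc25a31 (5.71% against 4.23%), and the cyclic AMP response element TGACGTCA in Slc25a25 and Slc25a36 (5.71% against 1.77%). The Slc25a25 window with this element lies wholly inside the gene. A match says only that the letters are there. Slc25a4 and Slc25a17, which share CCGGAAG and CCAAT, had estimates of opposite sign, neither past the threshold in edgeR. Slc25a54, which holds CCGGAAG, had no reads. A link of these motifs to level or to the difference between the groups was not tested.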

How the data were processed

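Per the submitters' processing notes, CASAVA 1.8.2, Bowtie 1.0.1, RSEM 1.2.15 and mm10 were used, with no roles given. Each gene table holds, per the file headers, the authors' RSEM expected counts (reads shared between genes in proportion where they map to several) and TPM. Trimming and annotation release: not given in the sources used here. Of 24376 IDs, 23580 had a symbol in GENCODE M21.

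Expected counts were rounded, filtered with filterByExpr (minimum count 10, minimum total 15), scaled with TMM and tested with edgeR 4.0.16 (two-sided quasi-likelihood test, robust dispersions, Benjamini-Hochberg adjustment over 12670 genes). CPM are TMM-scaled, errors are the SD of 3 libraries, and the floor is 3 counts. The rule for named members took the 10 most abundant, the 5 largest differences in each direction, the most abundant of each class, and related pairs. Members outside it are given briefly, chosen to account for the family. The members and lists were chosen with earlier results of these data known. Alternatives were other size factors and filters, DESeq2 1.42.0, limma 3.58.1, a replicate block and leaving out each library. The test was tried on simulated data. Some withheld items are not reported here.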

Additional observations from a re-analysis of the deposited data

How the results depend on the processing

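Size factors (RLE, upper quartile), a filter of 1 CPM in 3 libraries and limma-voom left the count of called members at 0. It was 1, Slc25a4 on the higher side, without a count filter, in DESeq2 and in limma on log2(TPM + 1) or log2(TPM + 0.1), and 0 to 1 with 1 library left out (1 without control replicate 2). No setting called a member lower. All genes called numbered 327 in the main fit, 311 in limma-voom, 428 in DESeq2 and 488 without a count filter. With other size factors or the 1 CPM filter they numbered 321 to 330. The TPM fits called 168 and 170. With 1 library left out the number was 128 to 283 (153 without control replicate 1 and 128 without shSamd14 replicate 2). The replicate numbers share only a number: same-numbered deviations correlated at -0.072, 0.153 and 0.272. With the number as a block, 682 genes and 2 members were called, Slc25a4 (adjusted p = 0.00528) and Slc25a10 (adjusted p = 0.0406), both edgeR. The members' median log2 fold change ran from -0.017 to 0.031 with 1 library left out, so its sign is not fixed. Members near 0 changed sign: Slc25a51 was 0.024 in both TPM fits. With 1 library left out Slc25a5 ran from -0.01 to 0.104, Slc25a20 from -0.001 to 0.058, Slc25a22 from -0.035 to 0.108, Slc25a28 from -0.014 to 0.059 and Slc25a24 from -0.175 to 0.059. Depth limits members under 1 TPM most.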
